A study of Mus musculus with 7 samples.

Results

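The 38 genes described here carry or control the cell division cycle: 14 regulators of the G1 phase and of entry into S phase, 10 genes of DNA replication and 14 genes of mitosis. They were taken by name from a list of known cell cycle genes, whatever their measured values, out of 36373 gene names on the array, and 36 of the 38 could be tested among 20823 genes in all. Expression was measured on 1-colour Agilent arrays in 2 tissues, both from mice of strain C57/Bl6 at embryonic day 11.5. The forelimb AER (apical ectodermal ridge), a raised strip of epithelium at the limb bud margin, was microdissected for 3 arrays, and posterior limb surface ectoderm was the control on 4 arrays. Each array carried RNA pooled from 2 to 3 mice, labelled from 75 ng of total RNA, and the labels name no treatment for either group. The pools are not stated to come from separate litters, so p-values measure the spread between these arrays.

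The cell cycle is driven by cyclin-dependent kinases, each switched on by a cyclin and held back by inhibitors of the Cip/Kip and Ink families. In G1, D-type cyclins with Cdk4 or Cdk6 and E-type cyclins with Cdk2 phosphorylate the retinoblastoma protein, which frees E2F factors to transcribe genes of DNA synthesis, while A- and B-type cyclins with Cdk1 later drive mitosis. The AER is known as the epithelial signalling centre whose fibroblast growth factors keep the limb mesenchyme beneath it growing.

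All differences below are log2 AER minus log2 ectoderm, where the log2 signal of each array had its own 75th percentile subtracted; a value of 0 thus equals the 75th percentile of that array. The 75th percentile signal was 341 to 563 in AER and 257 to 444 in ectoderm, and 47.6% to 54.1% and 47.7% to 49.9% of probes were well above background. Known AER genes marked the AER arrays, with 14 of 15 tested higher there. Of these, Sp9 was not well above background on any ectoderm array, so it passed the filter through AER alone. The array means of the AER genes were 2.93 to 3.38 in AER and -1.02, -0.61, 0.37 and -0.61 on ectoderm replicates 1 to 4. Fgf8 was at 2.20 on ectoderm replicate 3 and at -2.33, -1.42 and -1.40 on the other ectoderm arrays. The ectoderm arrays also held RNA of other limb tissue: 12 of 14 limb mesenchyme markers and 9 of 9 tested muscle progenitor markers were lower in AER. Of these muscle markers, 1 was not well above background on any AER array and passed the filter through ectoderm alone. The mean level of the mesenchyme markers was 1.29 to 1.60 in AER against 3.89 to 4.56 in ectoderm, and that of the muscle progenitor markers was -4.47 to -2.79 against 0.54 to 1.42. In both lists the lowest ectoderm mean was on ectoderm replicate 3. The part of these tissues in the results below was not tested. Pan-epithelial markers were higher in AER for 17 of 20, with array means of 2.31 to 2.62 against 0.38 to 0.93. Endothelial, erythroid and macrophage markers gave 0 calls by limma, with 8, 7 and 8 tested. Neural crest markers were higher in AER for 2 of 5 (array means -0.51 to 0.17 against -1.99 to -1.32), as were 2 of 8 immediate-early and heat-shock genes (-0.31 to -0.19 against -1.06 to -0.56). In bulk tissue, fewer cells of a type and less RNA per cell cannot be told apart.

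Most cell cycle genes showed no call between AER and ectoderm, and all those that did were regulators of G1. By limma with Benjamini-Hochberg adjustment over all genes tested, 5 of the 36 genes passed an adjusted p of 0.05, 1 of them higher in AER (Rb1) and 4 lower (Cdkn1c, Cdkn2c, Ccne1 and Ccnd3). That is 13.9% of the 36, against 15.7% of all genes tested, so the share called was near the background. Over all genes 7.03% were called higher and 8.65% lower. In the reported scaling the median difference of the 36 was -0.07, against -0.08 over all genes. With background corrected by normexp before the 75th percentile, the medians were 0.061 and -0.0521. With normexp and quantile scaling they were 0.22 for the 36 and 0.0386 over all genes. The groups did not overlap for 10 of the 36, or 27.8%, against 30.3% of all genes. All 36 were well above background on all 7 arrays, so none entered through 1 group alone. Ccne2, the second E-type cyclin, and Aurkb, the kinase of the chromosomal passenger complex, each have 1 probe that was not well above background on any array, and no difference is given for them.

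**Figure D1:**
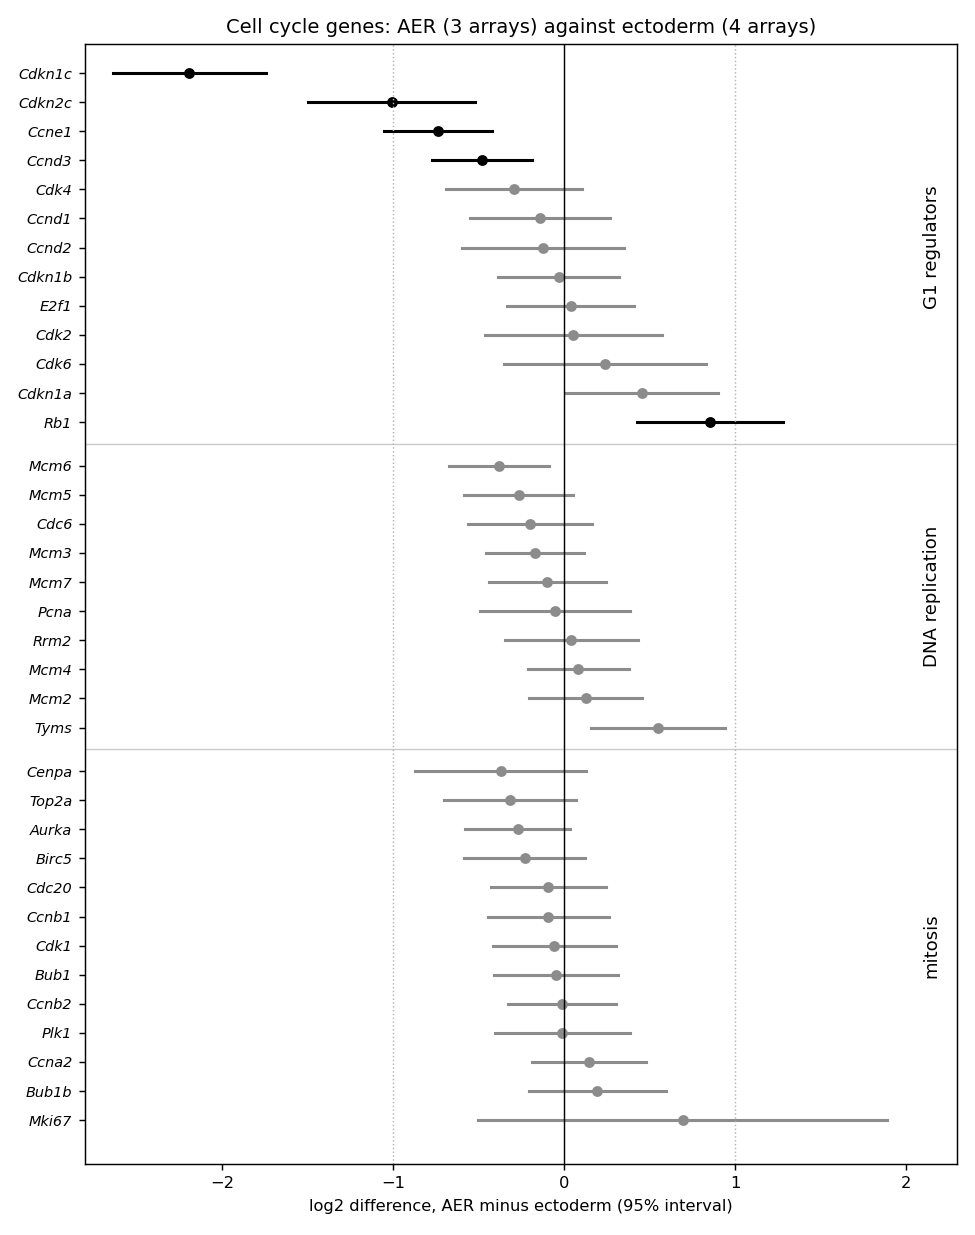
Difference in log2 signal (AER minus ectoderm, horizontal axis) with its 95% confidence interval for the 36 genes tested, ordered by role, from 3 AER and 4 ectoderm arrays. The 5 genes past the threshold all belong to the G1 regulators, and Cdkn1c lies farthest from 0 at -2.19.

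Among the 13 G1 regulators tested, 1 was higher and 4 were lower in AER (38.5%, against 15.7% of all genes). Their median difference was -0.12. Cdkn1c, a Cip/Kip inhibitor of cyclin-dependent kinases expressed from the maternal chromosome, had the lowest value of the 36. Its level was 4.72, 4.71 and 5.26 on AER replicates 1 to 3 and 6.96, 7.22, 6.86 and 7.30 on ectoderm replicates 1 to 4. Every AER array lay below every ectoderm array, and the gap between the groups was wider than the range within either. Cdkn1c fell by 2.19 (SE 0.20, 95% interval -2.64 to -1.75), which is 4.56-fold lower (3.35 to 6.21), with a limma adjusted p of 0.000153. Before scaling the signal was 8975, 14745 and 15040 on the AER arrays and 50830, 66176, 29917 and 54571 on the ectoderm arrays. The probe lies at chr7:150644753-150644812 on the minus strand (build mm9); the exon or UTR under it was not looked up, here and for the probes below. Within row 1 of the slide, with 1 AER array, the difference was -2.29, and within row 2, with 1 ectoderm array, it was -2.32.

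The other inhibitors moved less or were not called. Cdkn2c, an Ink-family inhibitor of Cdk4 and Cdk6, was at -2.79, -2.29 and -2.91 on the AER arrays and at -1.41, -1.48, -2.01 and -1.73 on the ectoderm arrays. The 2 groups did not overlap, though AER replicate 2 and ectoderm replicate 3 lay close. Cdkn2c fell by 1.01 (SE 0.21, interval -1.50 to -0.52), or 2.01-fold (1.43 to 2.83), with a limma adjusted p of 0.0141 (probe chr4:109333508-109333567, minus strand, mm9). With background corrected by normexp and quantile scaling the difference shrank to -0.57. Within the slide rows it was -1.16 and -0.87, about as large as over all arrays, though with 1 array in an arm the adjusted p was 0.13 and 0.49. Cdkn1a, the Cip/Kip inhibitor induced by p53, was at 1.96, 2.03 and 2.54 against 1.97, 1.48, 1.67 and 1.77. Its arrays overlapped, and the difference of 0.46 (0.01 to 0.90) had an adjusted p of 0.154. Cdkn1b, the third Cip/Kip member, differed by -0.03 (-0.39 to 0.32), an interval that leaves out a change as large as that of Cdkn1c. The change of Cdkn1c differed from that of Cdkn1a by -2.65, of Cdkn1b by -2.16 and of Cdkn2c by -1.18. For each of these 3 pairs the 2 groups did not overlap, and the two-sided exact permutation p was 0.0571, also after adjustment over the 3 pairs, the smallest that 3 against 4 arrays can give, so this test could not reach 0.05. Cdkn1c was set against the others for its large change, so these values are a description.

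Among the cyclins, the E- and D-type members with calls were lower in AER, each by an estimate under 2-fold. Ccne1, the cyclin that activates Cdk2 at the end of G1, was at 4.55, 4.61 and 4.60 in AER and 5.42, 5.24, 5.46 and 5.20 in ectoderm. The AER arrays were tightly grouped below all ectoderm arrays. Ccne1 fell by 0.74 (SE 0.14, interval -1.05 to -0.42), or 1.67-fold (1.34 to 2.08), with a limma adjusted p of 0.0076 (probe chr7:38882937-38882960, mm9). Its second probe gave -0.47, with an adjusted p of 0.162 in the limma fit over all probes. The call was lost with normexp background correction and quantile scaling together, where the difference was -0.38 with adjusted p 0.0859. Within the slide rows, with 1 array in an arm, it was -0.82 (adjusted p 0.113) and -0.59 (0.719). Ccnd3, a D-type cyclin, was at 6.10, 6.02 and 6.15 in AER and 6.58, 6.51, 6.55 and 6.64 in ectoderm. All AER arrays were below all ectoderm arrays, with a spread within each group under the gap. Ccnd3 fell by 0.48 (SE 0.13, interval -0.77 to -0.18), or 1.39-fold (1.14 to 1.71), with a limma adjusted p of 0.0387 (probe chr17:47736579-47736638, plus strand, mm9); its second probe gave -0.42 with adjusted p 0.0676. This call was the least stable of the 5: leaving out any array other than AER replicate 2 ended it, with adjusted p up to 0.127. With normexp background correction it was -0.22 (adjusted p 0.373), and with quantile scaling added to that it was 0.05. The other D-type cyclins, Ccnd1 at -0.14 (-0.55 to 0.27) and Ccnd2 at -0.12 (-0.60 to 0.35), were not called.

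The E2F side of the switch held the gene that was higher in AER. Rb1, the retinoblastoma protein that binds and silences E2F factors, was at 1.15, 1.59 and 1.54 in AER and 0.60, 0.73, 0.23 and 0.74 in ectoderm. The lowest AER array was above the highest ectoderm array. Rb1 rose by 0.85 (SE 0.19, interval 0.43 to 1.28), or 1.81-fold (1.34 to 2.43), with a limma adjusted p of 0.016 (probe chr14:73595408-73595467, minus strand, mm9). With flagged spots left out, its probe was read from 6 spots on AER replicate 1, 8 on AER replicate 2 and 10 on each other array. The SD between spots within an array was 0.0233 to 0.101. That SD does not measure the spread between arrays, whose SD was 0.24 in each group. With slide row as a block the difference was 0.73 with adjusted p 0.0503; within each slide row alone it was 0.63 (adjusted p 0.266) and 0.83 (adjusted p 0.511). Scaling each array to the pan-epithelial markers turned Rb1 to -0.97; that scaling moved the median of all genes from -0.08 to -1.91 and put all 36 genes below 0. E2f1, the factor that Rb1 holds back, differed by 0.04 (-0.33 to 0.41). The kinases Cdk2, Cdk4 and Cdk6 differed by 0.06, -0.29 and 0.24, and none was called.

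**Figure D2:**
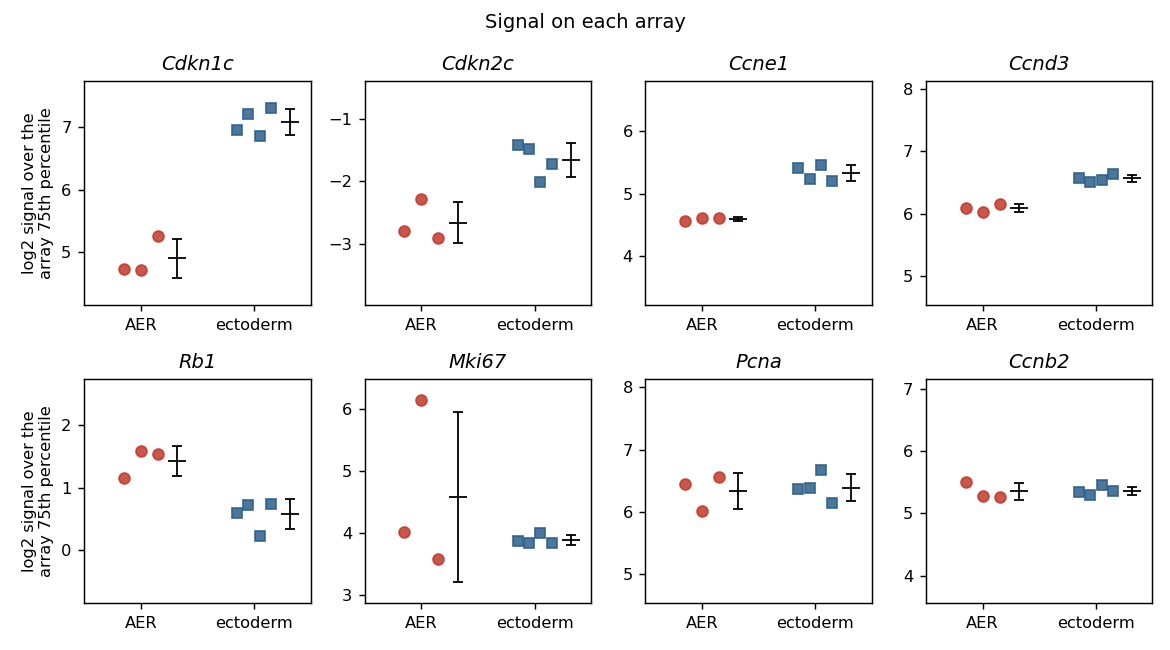
Log2 signal relative to the 75th percentile of each array (vertical axis) for Cdkn1c, Cdkn2c, Ccne1, Ccnd3, Rb1, Mki67, Pcna and Ccnb2 on the 3 AER and 4 ectoderm arrays, with mean and SD. The groups are apart for the first 5 genes, while Pcna and Ccnb2 overlap and 1 AER array stands high for Mki67.

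Other G1 regulators, 23 genes listed outside the 38, showed 2 higher and 2 lower of 22 tested (18.2%, against 15.7% of all genes), with a median difference of -0.15. Cdkn2b, an Ink-family inhibitor like Cdkn2c, was at -0.31, -0.71 and -0.50 on the AER arrays and -3.20, -3.30, -6.00 and -3.04 on the ectoderm arrays. The groups were far apart, with ectoderm replicate 3 lowest by a wide margin. Cdkn2b rose by 3.38 (interval 1.88 to 4.88) with a limma adjusted p of 0.0092, opposite to Cdkn2c; with normexp background correction the difference was 1.62. Its probe was well above background on 6 of 7 arrays, and within slide row 1, with 1 AER array, it was 3.86 with adjusted p 0.172. Cables1, which links cyclin-dependent kinases to other kinases, rose by 2.17 with an adjusted p of 0.000111. Cdc25a, the phosphatase that activates Cdk2, fell by 0.62 with an adjusted p of 0.0217. It lost that call in 9 of 20 other settings, among them without ectoderm replicate 1 (0.0639), 2 (0.0709) or 4 (0.0523). Ccna1, a germ-line A-type cyclin, was not well above background on any AER array and was so on 3 of 4 ectoderm arrays. Ccna1 thus passed the filter of 3 arrays through the ectoderm alone, so no p is given for its call, 1 of the 2 lower. Its ectoderm mean was at least 1.64-fold higher than the lowest signal measured above background on the AER arrays. With normexp background correction the Ccna1 difference was -0.54. Of 14 p53 targets and arrest genes, 3 were higher and 0 lower by limma (21.4%, against 15.7% of all genes called either way and 7.03% called higher): Perp at 1.60 (adjusted p 0.0021), Sesn2 at 1.04 (0.0029) and Phlda3 at 0.81 (0.0161), while Cdkn1a, itself a p53 target, was not called. Next by p was Btg2, in the opposite direction at -0.46 and not called (limma adjusted p 0.0571). The median difference of the 14 was 0.14. Within slide rows 1 and 2, with 1 array in an arm, Perp was at 1.72 and 1.34, Sesn2 at 1.03 and 0.89 and Phlda3 at 0.86 and 0.62, none of them called.

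The genes of DNA replication were called in neither direction: limma gave 0 of 10, against 15.7% of all genes, with 2 at an unadjusted p under 0.05. Their median difference was -0.07 and their range was -0.38 for Mcm6 to 0.55 for Tyms. All 10 intervals lay within 2-fold and 8 within 1.5-fold, so larger differences than these in single genes are outside the intervals; a p that misses the threshold does not show equality. The upstream sequences of 30 of the 38 genes were matched in RefSeq (GRCm38.p6), as 12 G1, 10 replication and 12 mitosis promoters of 250 bases, with some genes having more than 1 start. Cdkn1c and Rb1 were not among them. Each was searched on both strands for an E2F-like motif TTTNNCGC, a CCAAT box and the CHR motif TTTGAA, each counted on its own even where matches overlap. TTTNNCGC occurred in 4 of 10 replication, 2 of 12 G1 and 1 of 12 mitosis promoters, against 4.28% of all 32851 promoters in the table. The promoter of Mcm6, the replication gene with the lowest difference in the reported setting, is shown with these motifs in capitals (chr1:128359706-128359955, GRCm38.p6, minus strand); a match describes the letters alone.
Mcm6: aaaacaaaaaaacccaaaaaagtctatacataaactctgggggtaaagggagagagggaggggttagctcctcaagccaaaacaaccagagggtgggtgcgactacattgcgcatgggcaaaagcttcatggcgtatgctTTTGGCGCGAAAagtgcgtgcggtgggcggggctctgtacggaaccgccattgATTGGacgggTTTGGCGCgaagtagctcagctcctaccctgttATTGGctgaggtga
The Mcm6 window holds 3 matches to TTTNNCGC, 2 of them on opposite strands in 1 overlapping run, and 2 CCAAT boxes read as ATTGG. Ccne1, which was called, has none of the 3 motifs in its window (chr7:38107491-38107740, GRCm38.p6, minus strand), as shown for comparison.
Ccne1: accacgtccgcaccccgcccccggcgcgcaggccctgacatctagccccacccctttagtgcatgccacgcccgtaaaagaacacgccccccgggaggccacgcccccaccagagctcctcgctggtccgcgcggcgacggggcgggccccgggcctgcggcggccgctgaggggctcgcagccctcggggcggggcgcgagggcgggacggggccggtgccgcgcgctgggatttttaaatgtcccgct

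Mcm6, a subunit of the replicative helicase, was at 6.95, 6.81 and 6.96 in AER and 7.25, 7.33, 7.30 and 7.27 in ectoderm. The groups did not overlap, but the difference of -0.38 (-0.68 to -0.09) had a limma adjusted p of 0.0842. With normexp it was -0.14, and with normexp and quantile scaling 0.22, so its direction depends on the scaling. Tyms, thymidylate synthase, was at 0.51, 0.43 and 0.14 in AER and -0.02, -0.07, -0.48 and -0.20 in ectoderm. These groups did not overlap either, and the difference of 0.55 (0.16 to 0.94) had an adjusted p of 0.0651. Without AER replicate 3 the adjusted p was 0.0497, while with normexp the difference was 0.089 (adjusted p 0.767) and with normexp and quantile scaling 0.104 (0.648). The 5 other subunits of the helicase lay between -0.26 (Mcm5) and 0.13 (Mcm2). The groups did not overlap for Mcm5 and for Mcm3, at -0.17, either. In all, 4 of the 10 replication genes had groups that did not overlap (40%, against 30.3% of all genes). The loading factor Cdc6 differed by -0.20, the sliding clamp Pcna by -0.05 (-0.49 to 0.39) and the ribonucleotide reductase subunit Rrm2 by 0.04. A second Cdc6 probe gave -0.52, with groups that did not overlap and an adjusted p of 0.0883 in the limma fit over all probes. Pcna was called higher, at 0.44 with adjusted p 0.0397, with normexp and quantile scaling and in the authors' processed values. Among 32 further replication genes, 0 were higher and 1 was lower (3.1%, against 15.7% of all genes), with a median of -0.09. That gene was Gins3, a subunit of the GINS helicase complex, at -0.58 with adjusted p 0.0369, a call kept in 7 of 20 other settings and lost without any 1 array other than AER replicate 3 (adjusted p 0.0575 to 0.108). Next by p were Rpa2 at -0.72 (adjusted p 0.0534), Gins2 at -0.60 (0.0554) and Rrm1 at -0.43 (0.141), none past the threshold.

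The genes of mitosis gave 0 of 13 calls by limma, against 15.7% of all genes, and 0 at an unadjusted p under 0.05. Their median difference was -0.06. Their differences ran from -0.37 for Cenpa, the centromeric histone, to 0.69 for Mki67, and 12 of 13 intervals lay within 2-fold and 9 within 1.5-fold. A CCAAT box was present in 11 of 12 mitosis promoters, in 8 of 10 replication and in 3 of 12 G1 promoters, against 33.8% of all promoters. TTTGAA was present in 5 of 12, 1 of 10 and 0 of 12, against 16.0%. The promoters of Ccnb2 (chr9:70421555-70421804, minus strand) and Cdk1 (chr10:69352913-69353162, minus strand), both GRCm38.p6, are shown because they combine a CCAAT box with TTTGAA, in capitals, and belong to genes with differences near 0.
Ccnb2: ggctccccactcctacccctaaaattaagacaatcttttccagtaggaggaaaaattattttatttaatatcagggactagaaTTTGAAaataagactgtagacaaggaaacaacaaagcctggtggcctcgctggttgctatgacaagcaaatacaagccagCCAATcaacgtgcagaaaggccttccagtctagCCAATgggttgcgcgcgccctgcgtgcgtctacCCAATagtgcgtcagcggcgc
Cdk1: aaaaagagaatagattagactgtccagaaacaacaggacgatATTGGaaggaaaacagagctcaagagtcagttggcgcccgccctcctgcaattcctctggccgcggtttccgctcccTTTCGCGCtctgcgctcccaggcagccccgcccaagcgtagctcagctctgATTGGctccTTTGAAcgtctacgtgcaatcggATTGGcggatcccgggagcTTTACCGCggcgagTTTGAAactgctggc
The Cdk1 window also holds 2 matches to TTTNNCGC.

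Ccnb2, a B-type cyclin, differed by -0.01 (-0.33 to 0.30), Ccnb1 by -0.09 and their kinase Cdk1 by -0.06 (-0.41 to 0.30). Ccna2, the A-type cyclin of S phase and mitosis, differed by 0.14 (-0.19 to 0.48). Of the spindle checkpoint, Bub1 differed by -0.05, Bub1b by 0.20 and Cdc20, the activator of the anaphase-promoting complex, by -0.09. Plk1, a mitotic kinase, was at -0.01, Birc5 of the passenger complex at -0.23 and Top2a, which untangles sister DNA, at -0.32 (-0.70 to 0.07). Top2a was at 3.14, 3.70 and 3.26 in AER and 3.73, 3.61, 3.75 and 3.66 in ectoderm. AER replicate 2 was the AER array at ectoderm level, and without it the adjusted p was 0.0414. Aurka, a centrosomal kinase, was at 5.09, 5.01 and 5.18 in AER and 5.30, 5.32, 5.49 and 5.34 in ectoderm. It was the mitosis gene with the lowest p and the groups did not overlap, with a difference of -0.27 (-0.58 to 0.04) and a limma adjusted p of 0.213. Among 38 further mitosis genes, limma called 0 in either direction, against 15.7% of all genes, with a median of 0.10. The 4 with the lowest p were Bub3 at -0.43 (adjusted p 0.086), Pttg1 at -0.45, Mybl2 at 0.51 and Cenpf at 0.76. Without AER replicate 2, Mybl2 was at 0.31 and Cenpf at 0.27, and with normexp Mybl2 was at 0.084. The mean of the 38 was 3.00 on AER replicate 2 and 2.45 to 2.66 on the other arrays.

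The proliferation marker Mki67, which coats mitotic chromosomes, showed the widest interval of the 36. Its level was 4.02, 6.15 and 3.59 in AER and 3.88, 3.84, 4.00 and 3.84 in ectoderm. AER replicate 2 stood more than 2 above every other array, and its second probe gave the same picture, at 3.21, 5.95 and 3.01 against 3.24, 3.66, 3.69 and 3.61. The difference of 0.69 (-0.50 to 1.89) had a limma adjusted p of 0.394, and without AER replicate 2 it was -0.09. An excess of at least 2 on AER replicate 2 over each other array was seen for 23 of 20823 genes (0.110%), of which 1 was among the 36, and a deficit as large for 3 genes. Of the 38 further mitosis genes, Cenpe showed this excess too, at 5.42 on AER replicate 2 and 2.66 to 3.38 on the other arrays. The spots of Bub1 and Cdkn1a, up to 10 each, varied more on AER replicates 1 and 2 (SD 0.243 and 0.353 for Bub1, 0.181 and 0.215 for Cdkn1a) than on the other arrays (0.0434 to 0.113). For Rb1 the spot SD was 0.0557 and 0.101 on these 2 arrays and 0.0233 to 0.0763 on the others. AER replicate 1 thus did not stand out for Rb1. AER replicates 1 and 2 share slide column 1. The part of the column in these values was not tested.

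**Figure D3:**
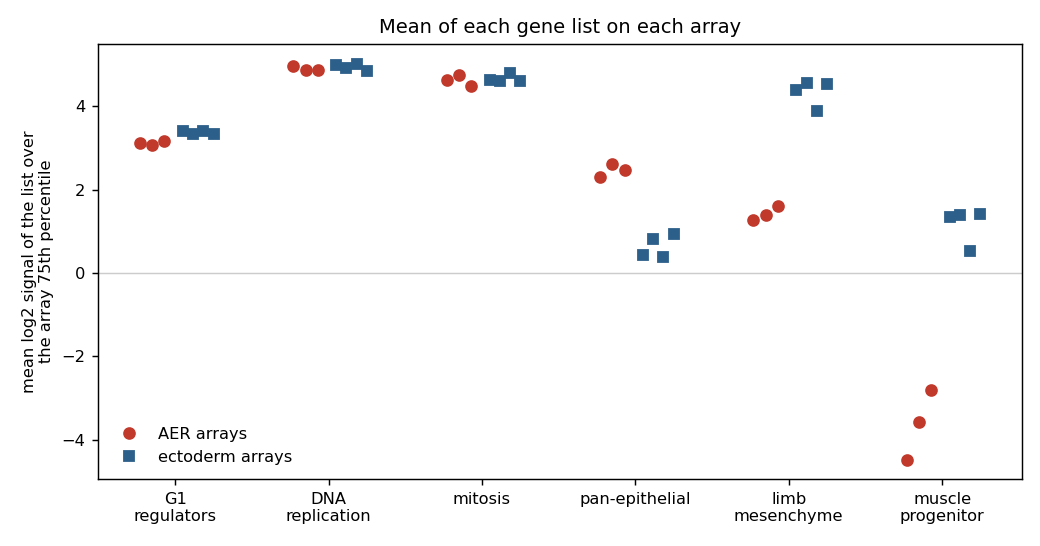
Mean log2 signal relative to the 75th percentile of each array (vertical axis) for the G1, replication and mitosis genes and for pan-epithelial, limb mesenchyme and muscle progenitor markers, 1 point per array. The replication and mitosis means overlap between the 3 AER and 4 ectoderm arrays, while the 3 marker means do not.

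The mean of the 10 replication genes was 4.88 to 4.97 in AER and 4.86 to 5.02 in ectoderm, and that of the 13 mitosis genes was 4.49 to 4.75 and 4.60 to 4.80. Both ranges overlapped. The mean of the 13 G1 regulators was 3.08 to 3.16 in AER and 3.34 to 3.42 in ectoderm, with no overlap. Cdkn1c carried most of that gap: without it, a comparison chosen after its value was seen, the mean of the other 12 was 2.94 to 2.99 in AER and 3.01 to 3.13 in ectoderm, a difference of -0.10.

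**Figure D4:**
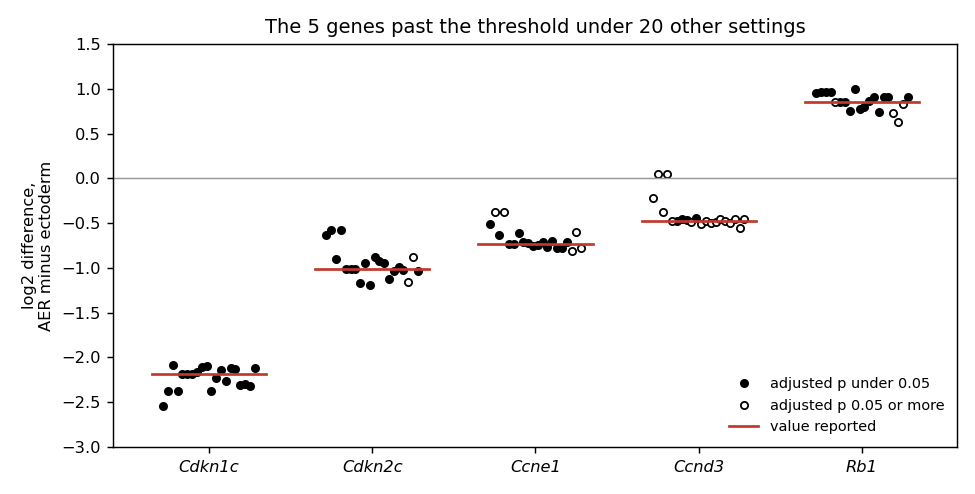
Difference in log2 signal (AER minus ectoderm, vertical axis) for Cdkn1c, Cdkn2c, Ccne1, Ccnd3 and Rb1 under the reported setting and 20 other settings. Cdkn1c stays past the threshold in all 20, while Ccnd3 does so in 4 and turns to 0.05 with normexp and quantile scaling.

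Of the 5 calls, Cdkn1c was kept in 20 of 20 other settings, Cdkn2c in 18, Rb1 in 16, Ccne1 in 15 and Ccnd3 in 4, with scaling to the epithelial markers left aside. The 20 settings are not separate checks. Normexp with quantile scaling and the authors' processed values are the same values and count as separate settings here. Averaging probes leaves the values of Cdkn1c, Cdkn2c and Rb1, with 1 probe each, unchanged. Among all genes 44.8% of the calls were higher in AER; with the 75th percentile of probes detected on every array it was 57.4%, and 0.875% with scaling to the epithelial markers. Under the epithelial scaling the median of the 36 was -1.90 against -1.91 for all genes.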

How the data were processed

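RNA of 3 AER and 4 ectoderm pools was hybridised to Agilent 1-colour arrays. Per the file headers, the authors' scanner files come from Feature Extraction 10.7.3.1 with probe positions on mm9, and hold the processed intensity of each spot after background subtraction. The authors' deposited value table holds log2 values; these equalled normexp correction followed by quantile scaling. Limma is named in the submitters' processing notes, with no version.

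Here control spots and outlier flags were left out, spots of a probe were averaged, and the log2 intensity had each array's 75th percentile subtracted. Probes well above background on at least 3 of 7 arrays were kept (28276 of 55681), and the probe with the highest mean stood for its gene. limma 3.58.1 in R 4.3.3 compared the groups by a two-sided moderated test (5 residual and 3.50 prior degrees of freedom) with Benjamini-Hochberg adjustment over 20823 genes and a threshold of 0.05. Probes were named through RefSeq accessions or symbols, and the file's name was kept otherwise.

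The genes and gene lists were chosen with earlier results of these data known. Named genes outside the 38 are up to 4 with the lowest p in each list of other cell cycle or p53 genes. Cenpe was named for its value on AER replicate 2. Single marker genes were named where their detection, direction or value on 1 array qualified a count. All arrays lie on 1 slide with 1 scan time, so slide row was the batch tried as a block. The deviations of same-numbered arrays correlated at -0.03, 0.19 and 0.13; since 1 of the 3 pairs did not deviate together, numbers were not taken as pairs. Alternatives covered background correction, scaling, filter, probe averaging, array weights, slide row, replicate block and each array left out. The number of arrays limits the precision.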

Additional observations from a re-analysis of the deposited data

Results flagged for a closer look

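Among the 4 ectoderm arrays, 1 stood apart from the rest for Ccna2 and for Bub1b: the gap to the nearest array made up 0.886 and 0.880 of the whole range. In both genes it was ectoderm replicate 2 that lay lowest, at 4.78 for Ccna2 (the others 4.92 to 4.93) and at 2.39 for Bub1b (the others 2.62 to 2.65). Chance singles out about 1 in 20 groups in this way.

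Cdkn1a has 2 further probes that did not enter the fit, each well above background on 1 of 3 AER arrays and on 0 of 4 ectoderm arrays. Their AER mean exceeded their ectoderm mean by 0.96 and 2.00. The first was at -5.95, -4.11 and -5.03 in AER and -6.17 to -5.77 in ectoderm, and the second at -4.06, -4.08 and -4.55 against -6.39 to -6.05. Most of these signals are within background, so the differences are given without a fold.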

How the results depend on the processing

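Of 21 alternative settings, scaling to the pan-epithelial markers moved most: it called 20119 genes and all 36 cell cycle genes, with a median difference of -1.90. It turned Rb1 to -0.97, Cdk2 to -1.77, Cdk6 to -1.59, Cdkn1a to -1.37, E2f1 to -1.79, Mcm2 to -1.70, Mcm4 to -1.74, Rrm2 to -1.78, Tyms to -1.28, Mki67 to -1.13, Ccna2 to -1.68, Bub1b to -1.63, Mybl2 to -1.32, Cenpf to -1.07, Perp to -0.23, Sesn2 to -0.79 and Phlda3 to -1.02; this scaling subtracts markers that are higher in AER. Quantile scaling after normexp and the authors' processed values gave a median of 0.22, against 0.0386 over all genes. They put Ccnd3 at 0.046 and Pcna at 0.44. The cause was not tested. The median was 0.061 with normexp and the 75th percentile, 0.031 with the percentile over probes above background on every array, -0.0126 with slide row as a block and 0.000818 within row 1. Over all genes the median in the same settings, in that order, was -0.0521, 0.0216, -0.0636 and 0.00137. The count of cell cycle genes called was 3 without a filter, 3 with the slide row block, 3 with the replicate block (1 higher, 2 lower; 2441 genes called), 1 within row 1 (650 genes) and 1 within row 2 (1388 genes), rows 1 and 2 each holding a group of 1 array, assumed to vary like the others. Of the 3 AER arrays, 2 correlated best with their own number, which is a hint from the data and no pairing. Leaving out 1 array at a time gave 4 to 6 cell cycle genes and 2197 to 3273 genes called, with adjusted p of 0.0003 to 0.0014 for Cdkn1c, 0.0097 to 0.0481 for Cdkn2c, 0.0134 to 0.029 for Ccne1, 0.0157 to 0.0485 for Rb1 and 0.0486 to 0.127 for Ccnd3. For genes without a call, a change of sign was counted only where the alternative called it, a rule chosen after their values were seen; 23 of 31 changed sign without a call in at least 1 setting. Besides Pcna, Tyms was called in 2 settings and Top2a in 1.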
